A study of Mus musculus with 24 samples.

Results

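Primary cortical astrocytes that received no radiation were compared 24 h and 6 h after mock irradiation, over all genes, to describe what differed with time in the dish without radiation. The 8 libraries, 4 for each time point, were chosen by their labels out of 24 libraries of the series, and the other 16 came from cells exposed to 0.1 Gy or 2 Gy of X-rays. All cells were wild type, from the brain cortex of C57BL/6J mouse embryos, and both groups here carried the same handling at 0 Gy. The cells were seeded in dishes 3 days before the mock exposure, RNA was taken after 6 h or 24 h, and polyadenylated RNA was sequenced in 1 run. The study's methods call the 4 libraries of a group biological repeats, and the labels number them 1 to 4. Per the study's methods, the cortical cells of all embryos of a litter were combined, so a culture stands for a litter and not for 1 animal. Neither the labels nor the methods tie a library to a litter, so the p-values measure the spread between these libraries, which may come from the culture rather than the litter. The samples are bulk cultures harvested at 2 times after a shared handling step. Time since the mock exposure, time since seeding, cell density and time of day therefore moved together and cannot be told apart. The study's methods give a change to fresh medium right after exposure for cultures whose supernatants were kept, gene expression harvests among them, without naming the sequenced dishes, so time since fresh medium may have differed between the groups too and cannot be told apart from the rest.

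Astrocytes are the glial cells that supply neurons with cholesterol and metabolites, clear transmitters and release cytokines. In a dish they respond to serum, to a change of handling and to contact with neighbouring cells. A transcription factor held in the membrane of the endoplasmic reticulum, SREBP2 (gene *Srebf2*), switches on the genes of cholesterol synthesis when sterols are scarce. Immediate early genes answer growth factors and stress within minutes and feed the AP-1 transcription factor, which acts with NF-kB on cytokine genes. The circadian clock is a feedback loop in which BMAL1 (gene *Arntl*) and CLOCK drive the *Per*, *Cry* and *Nr1d* genes, whose proteins repress them in turn.

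Total counts were 19986385 to 24345245 per library at 6 h and 17923903 to 27850546 at 24 h (two-sided exact permutation test, p = 0.6857, where 0.02857 is the smallest p that 4 against 4 allows). Mitochondrially encoded genes took 1.25% to 3.07% and 1.90% to 4.97% of the counts (exact permutation test, p = 0.2857). *Gm42418*, a locus that overlaps ribosomal RNA, took up to 10.4%, in replicate 1 at 24 h. The astrocyte identity given by the labels was checked on 12 markers, whose summed counts were 3227 to 3817 CPM (reads of the list scaled to a library total of 1e+06) at 6 h and 2975 to 4253 CPM at 24 h, with *Gfap*, *Aqp4*, *Slc1a3* and the other 9 all detected. Markers of microglia and macrophages summed to 353 to 3850 CPM at 6 h and 317 to 2852 CPM at 24 h, so that both groups held 1 library, replicate 2, with few such counts and 3 with many. Markers of neurons (527 to 746 and 558 to 817 CPM), of the oligodendrocyte lineage (438 to 814 and 491 to 631 CPM), of fibroblasts and meninges (659 to 1701 and 596 to 1072 CPM), of vessels (50 to 174 and 35.0 to 90.4 CPM) and of ependyma (107 to 188 and 89.6 to 293 CPM) overlapped between the time points.

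Between 6 h and 24 h, 1064 of 15887 tested genes (6.7%) were called at an adjusted p under 0.05 by the quasi-likelihood test of edgeR, with p-values adjusted by the Benjamini-Hochberg procedure over all of them. Of these, 515 (3.24%) were higher and 549 (3.46%) lower at 24 h. Over all tested genes the median stood at -0.02 (log2), and 48.5% of the values were positive. Large changes pointed downwards more often, with 84 called genes at least 4-fold lower and 24 at least 4-fold higher, and 564 calls (3.55%) were 1 or more log2 units away from 0. Levels of single genes are given as CPM scaled by the trimmed mean of M-values (TMM), in the order of replicates 1 to 4, and fold changes are log2 ratios of 24 h to 6 h with their SE. The 4 values at 24 h lay above all 4 values at 6 h for 1176 genes (7.4%) and below them for 1268 genes (7.98%). Called genes that rose were longer and poorer in G and C, with a median of 46.1% GC, than called genes that fell, with 53.0%, beside 49.6% for all tested genes, and the part of base composition in the calls was not tested beyond the correction given under the processing alternatives. The number of calls depended on single libraries. It was 170 without replicate 1 at 6 h, 279 without replicate 3 at 6 h and 633 without replicate 4 at 6 h, and 194, 2999 and 214 without replicates 1, 3 and 4 at 24 h.

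**Figure D1:**
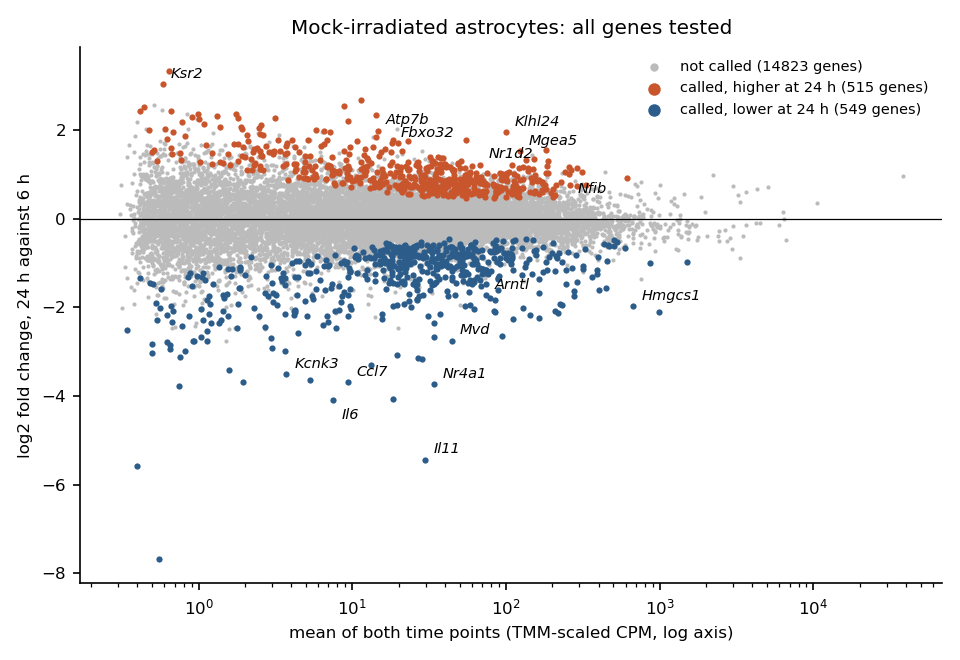
Each point is 1 of 15887 genes tested, with the mean level of both time points on the x axis (TMM-scaled CPM, log axis) and the log2 fold change of 24 h against 6 h on the y axis. Orange and blue points are the 515 genes called higher and the 549 called lower at 24 h, and the lower arm reaches further from 0 than the upper arm, with *Il11* at -5.44; the lowest point is *Wnt1*, with 0 counts in all 4 libraries at 24 h.

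The functions were described with 45 gene lists that hold 1035 tested genes, of which 29 were called higher and 111 lower. The list of cholesterol synthesis and uptake stood at the low end, with 22 of 25 tested members called lower and a median log2 fold change of -1.76, beside 3.46% and -0.02 over all genes. Immediate early and AP-1 genes (10 of 25 lower, median -0.99), cytokines and chemokines (7 of 22 lower, -0.66), ribosome biogenesis (9 of 25 lower, -0.46), senescence and its secretory phenotype (6 of 17 lower, -0.66) and feedback regulators of ERK signalling (6 of 25 lower and 2 higher, -0.67) followed. Calls ran in both directions among circadian clock genes (4 higher and 4 lower of 25). The lists with the most higher calls, besides the clock, were growth arrest and FoxO targets (4 of 29) and radial glia and Notch genes (4 of 25).

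**Figure D2:**
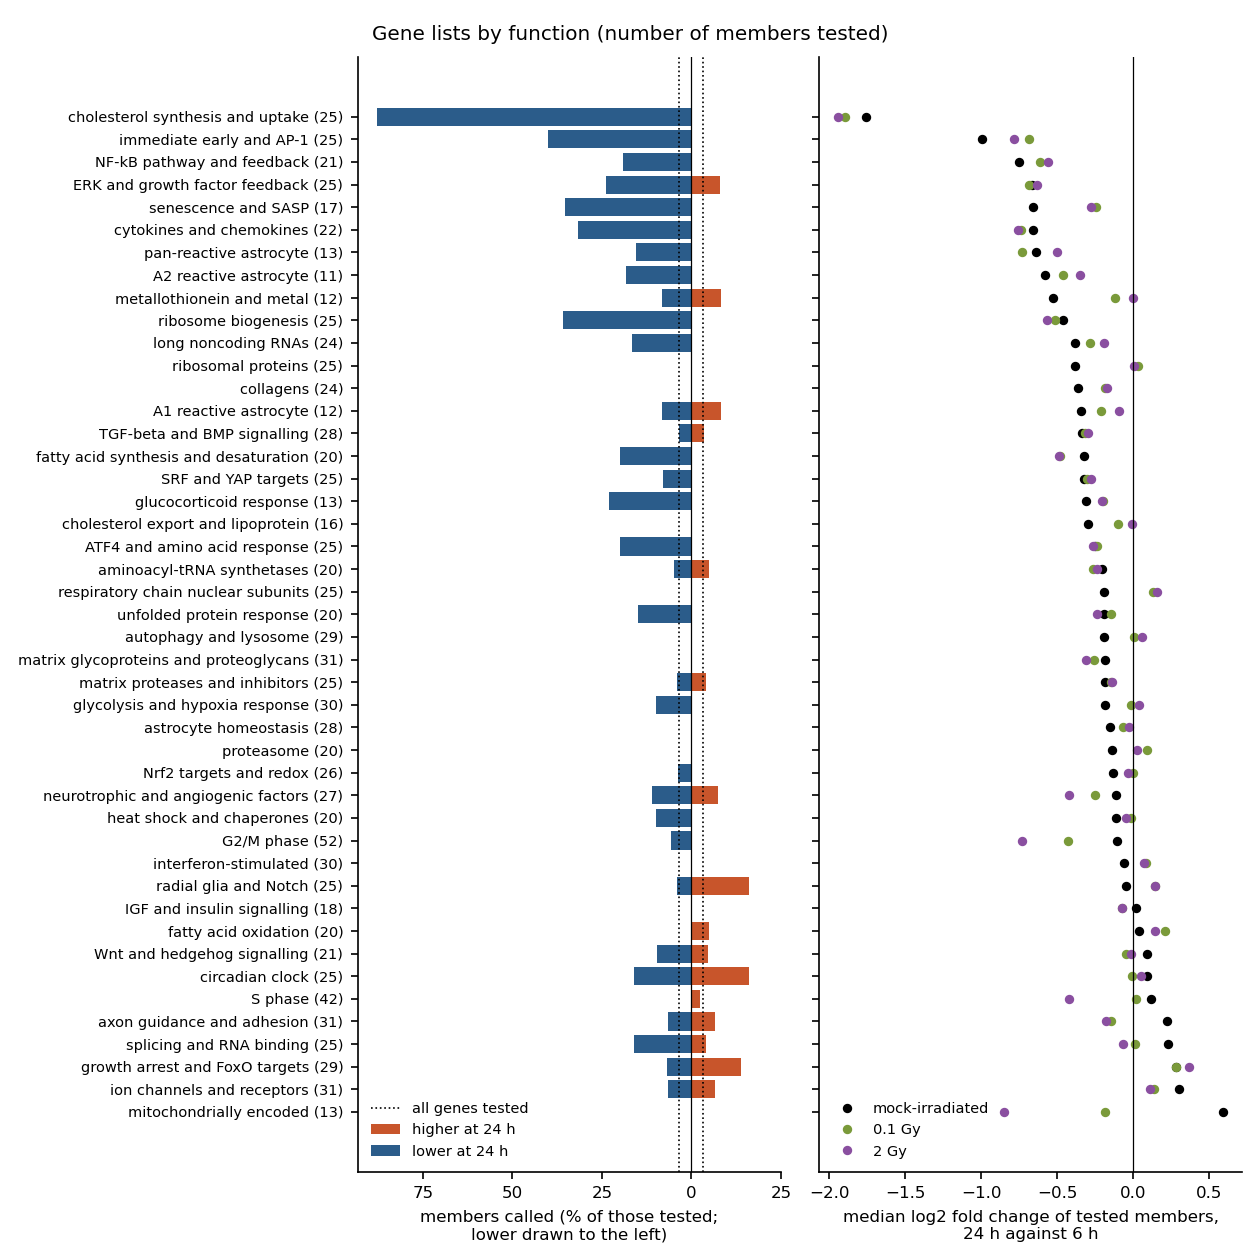
Left, the percentage of tested members of each of 45 gene lists called higher (orange, to the right) or lower (blue, to the left) at 24 h in mock-irradiated cells, with dotted lines at the 3.24% and 3.46% of all genes tested. Right, the median log2 fold change of the same members in mock-irradiated cells (black), after 0.1 Gy (green) and after 2 Gy (purple); cholesterol synthesis and uptake has the lowest median at all 3 doses.

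Most promoters of the genes of sterol synthesis held a short sequence that was also frequent in some lists with few or 0 lower calls. Promoter sequences of RefSeq (GRCm38.p6, 250 bases before to 50 bases after a start) were found for 15 of the 22 called members, and 14 of these held CCAAT on either strand, the box bound by NF-Y, beside 41.1% of 27025 genes with a promoter. The uncalled members with a promoter held it too (16 of 17 over the list), as did 16 of 18 genes of the unfolded protein response (88.9%), 35 of 46 of the G2/M phases (76.1%) and 21 of 30 of the S phase (70%). The stricter letters TCACNCCAC of a sterol regulatory element were in 1 of the 15, *Hmgcs1*, and in 1.4% of all genes. A match is a description of the letters and was not tested as a site. The stretches upstream of the start of *Hmgcs1* (chr13:119690101-119690350, plus strand), *Insig1* (chr5:28071162-28071240, plus strand), *Lss* (chr10:76531503-76531587, plus strand) and *Msmo1* (chr8:64733589-64733778, minus strand) are shown because these genes were among the 20 lower calls of smallest p, and capitals mark CCAAT or its complement ATTGG.
Hmgcs1: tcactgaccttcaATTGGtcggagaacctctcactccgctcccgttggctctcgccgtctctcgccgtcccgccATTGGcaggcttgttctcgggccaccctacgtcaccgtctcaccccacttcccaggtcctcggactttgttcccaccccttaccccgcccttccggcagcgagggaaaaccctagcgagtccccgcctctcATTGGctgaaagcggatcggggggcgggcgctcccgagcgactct
Insig1: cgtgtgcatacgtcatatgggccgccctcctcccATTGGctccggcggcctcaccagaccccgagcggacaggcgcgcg
Lss: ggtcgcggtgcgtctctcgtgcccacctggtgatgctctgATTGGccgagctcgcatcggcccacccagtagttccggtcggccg
Msmo1: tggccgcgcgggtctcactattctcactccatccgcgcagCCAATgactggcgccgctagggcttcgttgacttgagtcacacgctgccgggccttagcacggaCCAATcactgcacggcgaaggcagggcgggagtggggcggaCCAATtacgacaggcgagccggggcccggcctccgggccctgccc

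Transcripts of almost every step from acetyl-CoA to cholesterol were lower at 24 h, the 22 called genes by 1.80-fold to 6.74-fold. *Hmgcs1* (mm10, chr13:119690462-119708086, plus strand), HMG-CoA synthase, had 1285, 1086, 998 and 914 CPM at 6 h and 248, 395, 208 and 238 CPM at 24 h, with no overlap between the times (log2 fold change -1.98 ± 0.23 SE, adjusted p = 0.00503). *Mvd*, which makes isopentenyl diphosphate at the end of the mevalonate steps, had the largest change of the list, from 87.4, 62.2, 66.3 and 92.2 CPM to 7.81, 10, 16.3 and 11.5 CPM (log2 fold change -2.75 ± 0.25 SE, adjusted p = 0.00337). In both genes the highest library at 24 h stayed below the lowest at 6 h. Later steps behaved alike. *Lss*, which closes the sterol rings, had 236, 149.6, 191 and 160.1 CPM at 6 h and 33.1, 44.2, 43.6 and 31.6 CPM at 24 h (log2 fold change -2.27 ± 0.19 SE, adjusted p = 0.00292). *Dhcr7*, which makes cholesterol itself in the last step of 1 branch, had 99.6, 73.4, 74.6 and 97.3 CPM at 6 h and 18.3, 28, 19.9 and 21.6 CPM at 24 h (log2 fold change -1.98 ± 0.18 SE, adjusted p = 0.00337). *Msmo1* (log2 fold change -1.63 ± 0.17), *Cyp51* (-1.76 ± 0.22), *Fdft1* (-1.67 ± 0.18) and *Idi1* (-2.11 ± 0.36) fell too. The smallest called changes were those of *Sqle* (-0.98 ± 0.17), *Sc5d* (-0.89 ± 0.22) and *Nsdhl* (-0.85 ± 0.16), and *Tm7sf2* (-0.73 ± 0.34, adjusted p = 0.216) and *Ebp* (-0.26 ± 0.22, 0.507) did not pass the test. A part of the *Fdft1* exons (18.3% of their bases) overlaps *Ctsb* on the opposite strand, and the use of strand in counting is not stated.

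Control genes of the pathway moved the same way as synthesis. *Insig1*, which holds SREBP back in the endoplasmic reticulum and is itself an SREBP target, had 452, 343, 316 and 319 CPM at 6 h and 69.4, 116, 70.3 and 68.8 CPM at 24 h (log2 fold change -2.14 ± 0.22 SE, adjusted p = 0.00351). *Srebf2*, the driver of the pathway, had 411, 391, 332 and 329.5 CPM at 6 h and 139, 167, 208 and 165 CPM at 24 h and changed less (log2 fold change -1.11 ± 0.16 SE, adjusted p = 0.00709). The plot of members by library shows libraries that stood out in several genes, replicate 2 at 24 h being the highest of its group for *Insig1*, *Hmgcs1* and *Idi1*, and replicate 4 at 6 h the lowest of its group for *Hmgcs1*, *Idi1* and *Hsd17b7*. *Aacs*, *Pcyt2*, *Mmab* and *Erg28*, named after their values were seen, lie at the edge of the pathway in acetoacetate use, phosphatidylethanolamine synthesis, cobalamin and sterol demethylation, and fell, with log2 fold changes of -1.37, -1.65, -0.72 and -1.38 (adjusted p = 0.00513, 0.00525, 0.0395 and 0.00619). Of 16 genes of cholesterol export and lipoproteins, 0 were called by edgeR, 2 had an unadjusted p under 0.05, and DESeq2 and limma voom called 0. With 1 library left out, 13 to 23 members of the synthesis list were called lower, with 13, 14 and 15 calls without replicate 1 at 24 h, replicate 1 at 6 h and replicate 4 at 24 h, and the median stayed between -1.87 and -1.61. The calls of *Mvk*, *Pmvk*, *Idi1*, *Fdps*, *Sqle*, *Nsdhl*, *Hsd17b7*, *Sc5d* and *Mmab* did not hold in every fit with 1 library left out, all being lost without replicate 1 at 24 h and some without replicates 1, 2, 3 or 4 at 6 h or replicates 2 or 4 at 24 h (highest adjusted p per gene 0.0508 to 0.152). *Mmab* with library size alone or no filter on low counts (adjusted p = 0.0718) was not called either.

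**Figure D3:**
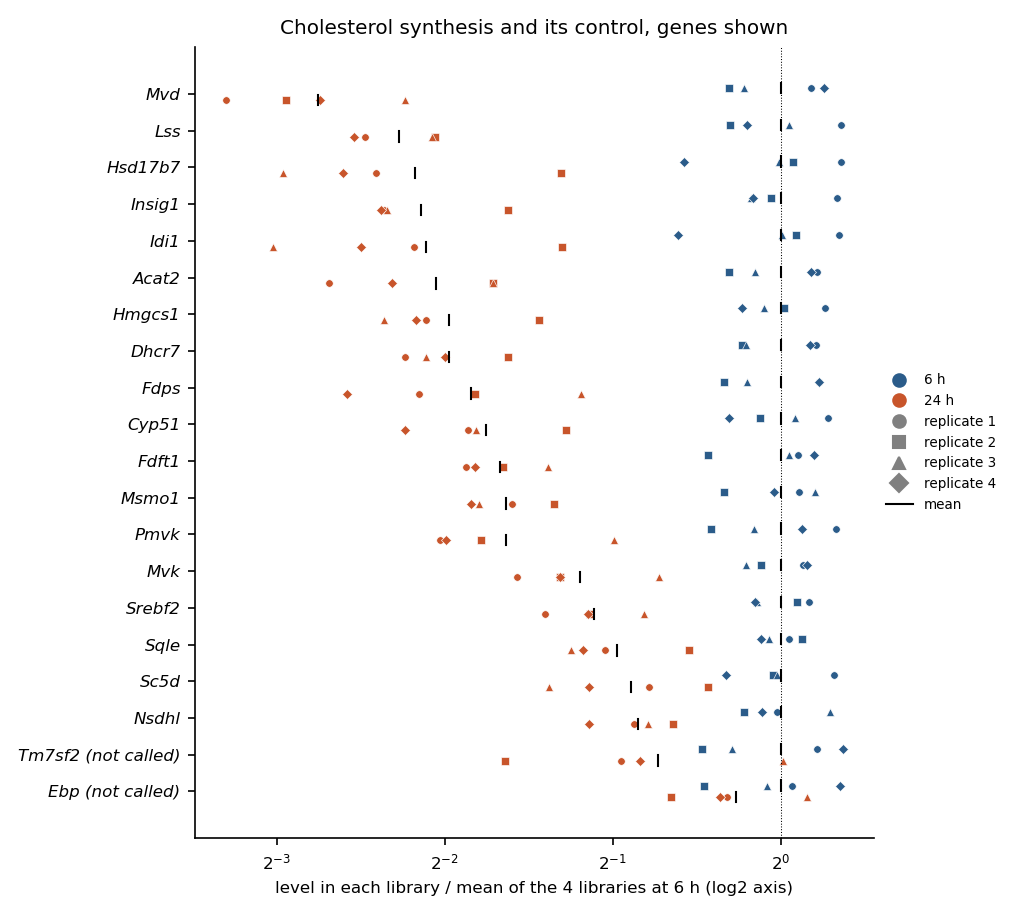
Level of the genes of cholesterol synthesis and its control in every library, divided by the gene's mean at 6 h (x axis, log2 scale), with 6 h in blue, 24 h in orange, replicates as symbols and black bars at the means. For the called genes shown all 4 values at 24 h lie to the left of all 4 values at 6 h, and for *Tm7sf2* and *Ebp* the groups overlap.

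Of 20 tested genes of fatty acid synthesis and desaturation, 4 were called lower, beside 3.46% of all genes, 16 had no call and the median of the list was -0.33. *Fasn*, fatty acid synthase, had 717, 538, 667 and 492 CPM at 6 h and 131, 202, 243 and 218 CPM at 24 h (log2 fold change -1.60 ± 0.22 SE, adjusted p = 0.00619). *Acly*, which makes the cytosolic acetyl-CoA for both pathways, had 499.8, 390.5, 443 and 402 CPM at 6 h and 179, 209, 214 and 182 CPM at 24 h (log2 fold change -1.15 ± 0.13 SE, adjusted p = 0.00513). The other calls were *Elovl6* (-1.02 ± 0.24), which elongates palmitate, and *Acsl3* (-0.89 ± 0.17), which activates fatty acids. Among 20 genes of fatty acid oxidation 1 was called, beside 3.24% of all genes called higher. It was *Cpt1a*, the carnitine transferase that lets fatty acids into mitochondria, which rose, with 125, 119.9, 133 and 113 CPM at 6 h and 209, 179.6, 157 and 187 CPM at 24 h (log2 fold change 0.58 ± 0.13 SE, adjusted p = 0.0303). *Pdk4*, a kinase that shuts pyruvate out of the citric acid cycle, also rose, from 14.6, 16.8, 16.3 and 19.5 CPM to 33.3, 39.2, 27.6 and 26.1 CPM (log2 fold change 0.91 ± 0.17 SE, adjusted p = 0.0198). Of 30 genes of glycolysis and the hypoxia response, 3 fell beside 3.46% of all genes, 27 had no call and the median was -0.18. *Slc2a1*, the main glucose transporter of astrocytes, had 231, 194, 207 and 196 CPM at 6 h and 92.7, 57.3, 96.3 and 103 CPM at 24 h (log2 fold change -1.25 ± 0.18 SE, adjusted p = 0.00831), *Hk2* encodes hexokinase (-1.03 ± 0.19) and *Vegfa* the vascular growth factor (-1.18 ± 0.28). The calls of *Elovl6*, *Acsl3*, *Cpt1a*, *Pdk4*, *Hk2* and *Vegfa* did not hold in every fit with 1 library left out, all being lost without replicates 1 or 3 at 6 h or replicate 1 at 24 h and some without replicates 2 or 4 at 6 h or replicate 4 at 24 h (highest adjusted p per gene 0.0808 to 0.13). *Cpt1a* with no filter on low counts (adjusted p = 0.0575) was not called either.

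Cytokine and chemokine transcripts showed large falls and no rise past the test. *Il11* (chr7:4772373-4782857, minus strand), a cytokine of the interleukin-6 family, had 48.2, 37.3, 111 and 36.8 CPM at 6 h and 0.488, 2.22, 1.86 and 0.779 CPM at 24 h, the lowest value at 6 h being above the highest at 24 h (log2 fold change -5.44 ± 0.58 SE, adjusted p = 0.00359). *Il6* itself had 19.9, 6.1, 26 and 4.78 CPM at 6 h and 0.773, 1.2, 0.893 and 0.416 CPM at 24 h (log2 fold change -4.09 ± 0.62 SE, adjusted p = 0.00907). *Ccl7*, a chemokine for monocytes, had 28, 9.31, 18.4 and 14.4 CPM at 6 h and 1.87, 0.602, 1.29 and 1.66 CPM at 24 h (log2 fold change -3.69 ± 0.44 SE, adjusted p = 0.00513). All 4 libraries of each gene separated the times, although the values within a time spread by several fold. *Ccl2* (-2.67 ± 0.46), *Cxcl1* (-2.54 ± 0.45), *Lif* (-1.95 ± 0.36) and *Cxcl10* (-1.46 ± 0.31) were the other calls among 22 cytokines. *Lif*, another ligand of the interleukin-6 family, had 86.5, 116, 118 and 48.7 CPM at 6 h and 19.2, 27.1, 36.1 and 12.9 CPM at 24 h. The calls of *Il11*, *Il6* and *Ccl7* held in all 8 fits with 1 library left out. The calls of *Ccl2*, *Cxcl1*, *Lif* and *Cxcl10* did not hold in every fit with 1 library left out, all being lost without replicate 1 at 6 h and some without replicate 3 at 6 h or replicates 1 or 4 at 24 h (highest adjusted p per gene 0.0595 to 0.0978). *Tnf* (12.4, 1.81, 12.8 and 9.03 CPM at 6 h, 4.88, 1.02, 7.33 and 6.55 CPM at 24 h, adjusted p = 0.453) and *Il1b* (8.44, 0.412, 3.93 and 2.25 and 2.93, 0.185, 2.61 and 5.25 CPM, 0.8) did not pass the test, and in both genes replicate 2 was the lowest library at either time. *Tnf* passed with the replicate block given under the processing alternatives. Counted per library, the microglial markers were at 3201, 353, 2711 and 3850 CPM at 6 h and at 1964, 317, 2656 and 2852 CPM at 24 h, 0 of their 16 genes was called by edgeR, DESeq2 or limma voom, and 0 had an unadjusted p under 0.05. Replicate 2 had the fewest microglial counts of each time, and there *Il11* was at 37.3 and 2.22 CPM and *Il6* at 6.1 and 1.2 CPM, and the part of microglial content in the cytokine values was not tested. In such bulk samples fewer cells of a type and less RNA per cell cannot be told apart.

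The AP-1 letters TGACTCA were found, on either strand, in the promoters of 4 of the 5 called cytokines with a RefSeq promoter, *Il11*, *Il6*, *Lif* and *Cxcl10*, but not in that of *Cxcl1*, beside 5.9% of all genes with a promoter. Over the whole list, 5 of the 16 tested cytokines with a promoter held these letters. They were in none of the promoters of 6 called immediate early genes. The stretches around the match in *Il11* (chr7:4778193-4778279, minus strand, 98 bases before the start), *Il6* (chr5:30012864-30012911, plus strand, 249 bases) and *Lif* (chr11:4257318-4257386, plus strand, 228 bases) are shown because these 3 ligands of the interleukin-6 family fell together, and capitals mark TGACTCA or its complement TGAGTCA.
Il11: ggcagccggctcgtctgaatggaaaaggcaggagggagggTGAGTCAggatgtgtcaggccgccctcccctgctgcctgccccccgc
Il6: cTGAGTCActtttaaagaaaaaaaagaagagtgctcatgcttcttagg
Lif: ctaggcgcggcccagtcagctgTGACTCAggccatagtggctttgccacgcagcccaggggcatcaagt

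Of 21 genes of the NF-kB pathway and its feedback, 4 were lower, beside 3.46% of all genes, 17 had no call and the median was -0.75. *Nfkbia*, the inhibitor that NF-kB induces to end its own signal, had 131, 62.4, 100.05 and 117 CPM at 6 h and 39.7, 24.4, 53.2 and 57.1 CPM at 24 h (log2 fold change -1.24 ± 0.30 SE, adjusted p = 0.0418). *Ptgs2*, the enzyme of prostaglandin synthesis also known as COX-2, had 255, 154, 209 and 35.9 CPM at 6 h and 35, 40.5, 12.4 and 15.7 CPM at 24 h (log2 fold change -2.66 ± 0.59 SE, adjusted p = 0.0315), with replicate 4 at 6 h inside the range of the 24 h values. *Nfkb2* (-0.83 ± 0.19), a precursor of the alternative NF-kB dimers, and *Cd40* (-1.33 ± 0.27), a receptor of the tumour necrosis factor family, completed the calls. *Rela*, which encodes the p65 subunit, did not pass, with 104, 86.5, 94.8 and 98 CPM at 6 h and 74.9, 68.9, 119 and 87.9 CPM at 24 h (adjusted p = 0.706). The calls of *Nfkbia*, *Ptgs2*, *Nfkb2* and *Cd40* did not hold in every fit with 1 library left out, all being lost without replicates 1 or 3 at 6 h or replicates 1 or 4 at 24 h and some without replicate 4 at 6 h or replicate 2 at 24 h (highest adjusted p per gene 0.098 to 0.139). *Nfkbia* with library size alone (adjusted p = 0.0512), *Ptgs2* with limma voom (adjusted p = 0.0515) and *Nfkb2* with an offset for GC content and length (adjusted p = 0.115) were not called either.

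**Figure D4:**
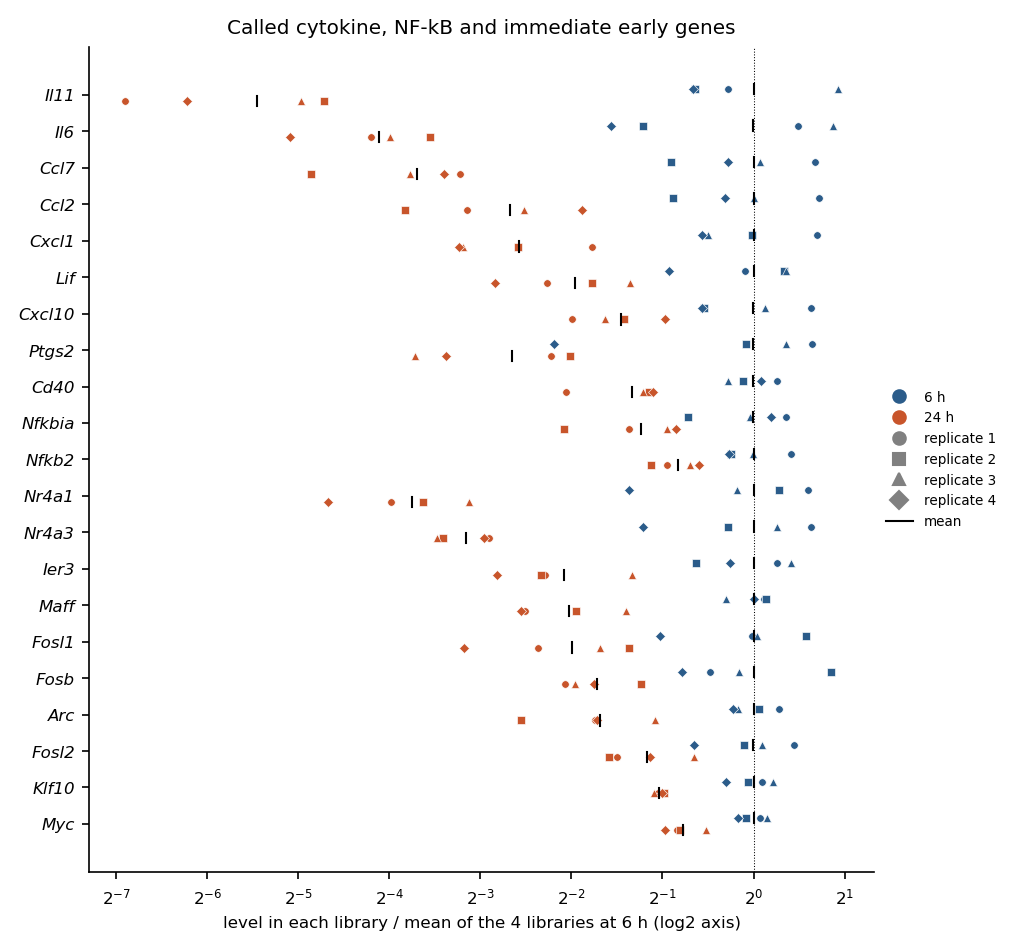
Level of the called cytokine, NF-kB and immediate early genes in every library, divided by the gene's mean at 6 h (x axis, log2 scale), with 6 h in blue, 24 h in orange, replicates as symbols and black bars at the means. The 4 values at 24 h lie left of those at 6 h for all genes shown but *Ptgs2*, and the shift is largest for *Il11*, *Il6*, *Nr4a1* and *Ccl7*.

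Of 25 immediate early genes 10 fell and none rose past the test, and 24 of the 25 log2 fold changes were below 0. *Nr4a1*, an orphan nuclear receptor induced by growth factors and calcium, had 96.3, 77.3, 56.1 and 24.7 CPM at 6 h and 4.03, 5.14, 7.29 and 2.49 CPM at 24 h (log2 fold change -3.74 ± 0.46 SE, adjusted p = 0.00525). Its relative *Nr4a3* had 79.4, 42, 61.2 and 22.1 CPM at 6 h and 6.83, 4.82, 4.61 and 6.6 CPM at 24 h (log2 fold change -3.16 ± 0.38 SE, adjusted p = 0.00513). *Maff*, a small partner of AP-1 proteins, had 224, 229, 168 and 209 CPM at 6 h and 36.5, 53.7, 78.3 and 35.3 CPM at 24 h (log2 fold change -2.02 ± 0.26 SE, adjusted p = 0.00543). These 3 genes had no overlap between the times and were called in all 8 fits with 1 library left out, as was *Klf10* (-1.03 ± 0.14), a target of TGF-beta. *Ier3* (-2.08 ± 0.34), *Fosl1* (-2.0 ± 0.43), *Fosb* (-1.72 ± 0.39), *Arc* (-1.67 ± 0.32), *Fosl2* (-1.17 ± 0.27) and *Myc* (-0.77 ± 0.15) were the other calls, the last with 29.2, 26.3, 30.7 and 24.8 CPM at 6 h and 15.5, 15.8, 19.3 and 14.2 CPM at 24 h. The calls of *Ier3*, *Fosl1*, *Fosb*, *Arc*, *Fosl2* and *Myc* did not hold in every fit with 1 library left out, all being lost without replicate 1 at 6 h or replicate 1 at 24 h and some without replicates 2 or 3 at 6 h or replicates 2 or 4 at 24 h (highest adjusted p per gene 0.0608 to 0.131). *Fosl1* with an offset for GC content and length (adjusted p = 0.0519) was not called either. Of the *Fosl1* exon bases, 57.2% overlap *Ccdc85b* on the opposite strand. The members known to be induced earliest were not among the calls, *Fos* (-0.45), *Jun* (-0.16) and *Egr1* (0.55) having adjusted p-values of 0.349, 0.466 and 0.482. Without replicate 1 at 6 h or replicate 1 at 24 h 4 members were called, and 5 without replicate 3 at 6 h or replicate 4 at 24 h, against 16 without replicate 3 at 24 h.

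Of 25 genes of ERK and growth factor feedback 6 fell and 2 rose, beside 3.46% lower and 3.24% higher of all genes. The other 17 had no call, 7 of the 25 log2 fold changes were above 0, and ERK activity was not measured. *Dusp5*, a nuclear phosphatase of ERK, had 67.4, 76.4, 69.3 and 46.6 CPM at 6 h and 19.2, 19.7, 26.3 and 12.4 CPM at 24 h (log2 fold change -1.74 ± 0.24 SE, adjusted p = 0.00676). *Dusp10* (-1.12 ± 0.18), *Phlda1* (-1.38 ± 0.26) and *Plaur* (-1.70 ± 0.33), the receptor of urokinase, fell with it, as did *Lif* and *Vegfa*, which the list also holds, whereas *Spred1* (0.83 ± 0.17), an inhibitor of the Ras to Raf step, and *Etv1* (1.02 ± 0.25), an ETS factor, rose. *Gdf15*, a stress-induced member of the TGF-beta superfamily, had 53.5, 67.4, 41.5 and 40.9 CPM at 6 h and 6.38, 12.2, 18.3 and 7.48 CPM at 24 h (log2 fold change -2.19 ± 0.34 SE, adjusted p = 0.00994). It belongs to the senescence list, in which the chemokines *Ccl2* and *Cxcl1* and *Il6* were called too. *Cdkn1a* (347, 558, 276 and 297 CPM at 6 h and 262, 356, 370.2 and 273 CPM at 24 h, adjusted p = 0.601) and *Cdkn2a* (24.6, 10.3, 11.3 and 17.5 CPM at 6 h and 11.8, 5.05, 13.7 and 9.2 CPM at 24 h, 0.288), the cell cycle inhibitors of the same list, did not pass the test. *Ccn1* (-0.97 ± 0.19) and *Fhl2* (-1.03 ± 0.24) were the 2 lower calls among 25 targets of SRF and YAP, beside 3.46% of all genes, and 23 had no call. The calls of *Dusp10*, *Phlda1*, *Plaur*, *Spred1*, *Etv1*, *Ccn1* and *Fhl2* did not hold in every fit with 1 library left out, all being lost without replicate 1 at 6 h or replicates 1 or 4 at 24 h and some without replicates 2, 3 or 4 at 6 h or replicate 2 at 24 h (highest adjusted p per gene 0.0525 to 0.131). *Etv1* with limma voom (adjusted p = 0.0727) and *Fhl2* with an offset for GC content and length (adjusted p = 0.0827) were not called either.

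Genes of the circadian clock were called in both directions, 4 repressors and activators of the loop lower and 4 other members higher at 24 h. *Arntl* (chr7:113207465-113314126, plus strand), which encodes BMAL1, had 105, 135, 134 and 81.5 CPM at 6 h and 32.6, 39.3, 34.4 and 31.5 CPM at 24 h (log2 fold change -1.72 ± 0.18 SE, adjusted p = 0.00351). *Ciart*, a repressor of the CLOCK and BMAL1 dimer, had 11.3, 10.2, 9.74 and 12.2 CPM at 6 h and 2.93, 5.09, 3.61 and 3.01 CPM at 24 h (log2 fold change -1.57 ± 0.23 SE, adjusted p = 0.0081). *Cry1*, a core repressor, had 28.9, 20.4, 24.9 and 27.1 CPM at 6 h and 16.2, 16.6, 13.9 and 13.7 CPM at 24 h (log2 fold change -0.74 ± 0.16 SE, adjusted p = 0.0277), and *Bhlhe40*, a repressor at E-boxes, 121, 115, 184 and 123 CPM at 6 h and 60.5, 63.4, 99.9 and 59.7 CPM at 24 h (log2 fold change -0.94 ± 0.22 SE, adjusted p = 0.0374). All 4 were lower at 24 h without overlap. The other 4 called members were higher, repressors of the loop among them. *Per2* had 22.9, 21.8, 20.4 and 19.5 CPM at 6 h and 33.5, 34.7, 35.4 and 45.2 CPM at 24 h (log2 fold change 0.81 ± 0.14 SE, adjusted p = 0.0152) and *Per3* 17.1, 22.1, 17.6 and 16.8 CPM at 6 h and 35.6, 33.4, 23 and 34.8 CPM at 24 h (log2 fold change 0.78 ± 0.18 SE, adjusted p = 0.0346). For *Per2* the 4 values at 6 h lay close together, and for *Per3* the times came within a narrow gap of each other. *Nr1d2*, which encodes REV-ERB beta, a repressor of *Arntl*, had 42, 47.6, 40.3 and 33.9 CPM at 6 h and 118, 109, 64.2 and 90 CPM at 24 h (log2 fold change 1.22 ± 0.20 SE, adjusted p = 0.0125). *Hlf*, an output factor at D-boxes, had 2.14, 2.27, 1.38 and 2.1 CPM at 6 h and 6.83, 5.93, 2.79 and 6.44 CPM at 24 h (log2 fold change 1.48 ± 0.33 SE, adjusted p = 0.0305). For *Per3*, *Nr1d2* and *Hlf* replicate 3 was the lowest of the 24 h libraries.

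*Dbp* (0.85 ± 0.28, 0.098), the other output factor known for its strong rhythm, *Npas2* (-0.99 ± 0.31, 0.0896) and *Clock* (0.57 ± 0.26, 0.208) did not pass the test, nor did *Nr1d1* (-0.35 ± 0.26, 0.445) and *Per1* (-0.31 ± 0.22, 0.413), the values being log2 fold changes with SE and adjusted p. *Noct* (-1.27 ± 0.18) and *Cipc* (-0.67 ± 0.11), a rhythmic deadenylase-like protein and an inhibitor of CLOCK that were named after their values were seen, were lower (adjusted p = 0.00671 and 0.0128). The calls of *Arntl* and *Ciart* held in all 8 fits with 1 library left out. The calls of *Cipc*, *Cry1*, *Bhlhe40*, *Per2*, *Per3*, *Nr1d2* and *Hlf* did not hold in every fit with 1 library left out, all being lost without replicate 1 at 6 h and some without replicates 3 or 4 at 6 h or replicates 1, 2 or 4 at 24 h (highest adjusted p per gene 0.0536 to 0.139). *Cry1* with no filter on low counts (adjusted p = 0.0527) and *Hlf* with limma voom (adjusted p = 0.0521) were not called either. Time of day was not given for the harvests, so a rhythm and a change in 1 direction cannot be told apart from 2 time points.

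Of the clock genes that fell, *Cry1* and *Ciart* held the E-box CACGTG in their RefSeq promoter, and *Arntl* held TNGGTCA, the core of the element bound by ROR and REV-ERB proteins. An E-box was in 8.1% and a TNGGTCA in 12.4% of all genes with a promoter, and 3 of the 4 genes that fell and 3 of the 4 that rose had a promoter sequence. Of the latter, *Per3* held TNGGTCA and none held CACGTG. Uncalled clock genes held these letters too. Of 20 tested clock genes with a promoter 5 held CACGTG, among them the uncalled *Bhlhe41*, *Per1* and *Tef*. TNGGTCA was also in 5 of the 20, among them the uncalled *Cry2*, *Nfil3* and *Tef*. The stretches of *Arntl* (chr7:113207225-113207330, plus strand, with 2 matches), *Cry1* (chr10:85185069-85185154, minus strand, with 1) and *Ciart* (chr3:95882229-95882384, minus strand, with 3) are shown because the letters of the loop's own elements stand there, and capitals mark the matches.
Arntl: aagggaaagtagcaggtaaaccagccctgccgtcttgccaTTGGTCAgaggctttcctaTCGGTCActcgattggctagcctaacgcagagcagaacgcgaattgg
Cry1: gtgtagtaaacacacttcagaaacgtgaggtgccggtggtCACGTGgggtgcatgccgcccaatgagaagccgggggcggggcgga
Ciart: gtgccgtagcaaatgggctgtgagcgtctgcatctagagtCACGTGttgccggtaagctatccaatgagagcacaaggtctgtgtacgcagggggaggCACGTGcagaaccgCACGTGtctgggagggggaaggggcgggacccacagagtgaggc

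**Figure D5:**
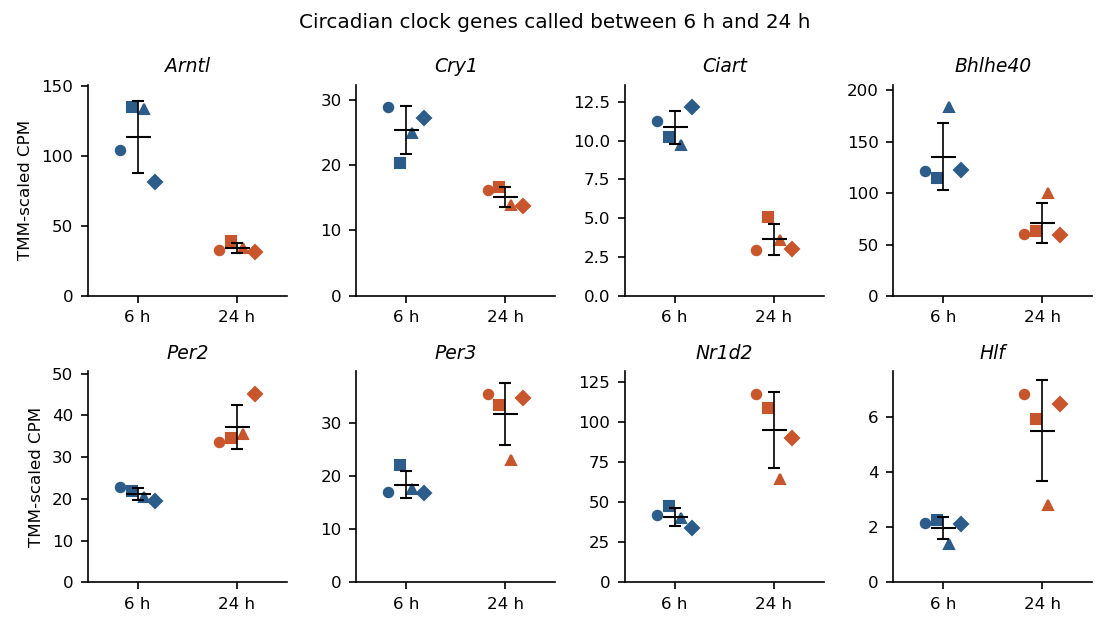
TMM-scaled CPM of the 8 clock genes called between the times in each library, with circles, squares, triangles and diamonds for replicates 1 to 4 and black bars for the mean ± SD (n = 4). *Arntl*, *Cry1*, *Ciart* and *Bhlhe40* were lower at 24 h in all libraries and *Per2*, *Per3*, *Nr1d2* and *Hlf* higher.

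Of 29 genes of growth arrest and targets of FoxO factors, which act when growth factor signals wane, 4 were called higher, beside 3.24% of all genes, 2 lower and 23 neither. The higher calls were *Fbxo32*, *Sesn3*, *Ccng2* and *Pdk4*. *Fbxo32*, a ubiquitin ligase subunit of muscle atrophy, had 8.29, 10.3, 5.69 and 9.86 CPM at 6 h and 28, 21.3, 21.7 and 39.7 CPM at 24 h (log2 fold change 1.69 ± 0.27 SE, adjusted p = 0.0103). *Sesn3*, a regulator of mTORC1, had 128, 119, 109 and 99.8 CPM at 6 h and 332, 258, 155 and 284 CPM at 24 h (log2 fold change 1.17 ± 0.22 SE, adjusted p = 0.0185). *Ccng2*, an atypical cyclin linked to arrest, had 14, 12, 16.5 and 20.2 CPM at 6 h and 27.2, 27.9, 24.9 and 33 CPM at 24 h (log2 fold change 0.85 ± 0.19 SE, adjusted p = 0.0313). In all 3 genes every library at 24 h exceeded every library at 6 h. Outside the list, 2 further genes are given as higher calls of smallest p. *Klhl24*, an adaptor of a cullin ubiquitin ligase, had 35.6, 49.9, 39.6 and 40.2 CPM at 6 h and 198, 175, 106 and 158 CPM at 24 h, 3.86 times as much at 24 h (log2 fold change 1.95 ± 0.20 SE, adjusted p = 0.00351). *Depdc5*, a subunit of the GATOR1 complex that restrains mTORC1, had 19.7, 28.4, 23.2 and 23 CPM at 6 h and 50.6, 50.7, 47.8 and 53.9 CPM at 24 h (log2 fold change 1.10 ± 0.14 SE, adjusted p = 0.00543). The list had a median of 0.28, 1 to 7 higher calls with 1 library left out, and *Btg1* (-0.72 ± 0.15) and *Trib1* (-0.64 ± 0.16) were its 2 lower calls. Of 52 genes of the G2/M phases, 3 were lower beside 3.46% of all genes, 49 had no call, and 0 were lower without replicate 1 or replicate 3 at 6 h or replicate 1 or 4 at 24 h. They were *Ube2c* (33.8, 42.9, 36.8 and 35 CPM at 6 h and 17.9, 23.3, 26.3 and 20.1 CPM at 24 h, -0.76 ± 0.16), *Ccnb2* (-0.72 ± 0.14) and *Tubb4b* (-0.87 ± 0.17). *Mki67*, the marker of cycling cells, had 89, 106, 124 and 52.3 CPM at 6 h and 108, 129, 57.6 and 129 CPM at 24 h and did not pass (adjusted p = 0.75), with replicate 4 the lowest library at 6 h and replicate 3 at 24 h. The calls of *Fbxo32*, *Klhl24* and *Depdc5* held in all 8 fits with 1 library left out. The calls of *Sesn3*, *Ccng2*, *Btg1*, *Trib1*, *Ube2c*, *Ccnb2* and *Tubb4b* did not hold in every fit with 1 library left out, all being lost without replicates 1 or 3 at 6 h or replicates 1 or 4 at 24 h and some without replicates 2 or 4 at 6 h or replicate 2 at 24 h (highest adjusted p per gene 0.0633 to 0.171). *Ccng2* and *Ube2c* with an offset for GC content and length (adjusted p = 0.0557 to 0.0811), *Ccnb2* with no filter on low counts (adjusted p = 0.0552) and *Trib1* in 4 of 10 other settings (highest adjusted p = 0.0836) were not called either.

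Of 25 genes for making ribosomes 9 fell and none rose past the test, and 23 log2 fold changes were below 0. *Rrs1*, an assembly factor of the large subunit, had 79.6, 74.8, 63.9 and 69.4 CPM at 6 h and 23.7, 28.2, 40.4 and 27 CPM at 24 h (log2 fold change -1.27 ± 0.18 SE, adjusted p = 0.00747), and *Nop2*, a ribosomal RNA methyltransferase, had 69.9, 58.8, 68.8 and 63.6 CPM at 6 h and 28.4, 31.7, 37.5 and 26.1 CPM at 24 h (log2 fold change -1.08 ± 0.15 SE, adjusted p = 0.00656). *Nop56* (-0.90 ± 0.12), *Gnl3* (-0.98 ± 0.22), *Tsr1* (-0.87 ± 0.21), *Mybbp1a* (-0.83 ± 0.14), *Rrp12* (-0.71 ± 0.18), *Polr1b* (-0.65 ± 0.14) and *Nolc1* (-0.62 ± 0.14) were the other calls. Exons of *Tsr1* overlap *Srr* on the opposite strand over 32.3% of their bases. The calls of *Rrs1*, *Nop2* and *Nop56* held in all 8 fits with 1 library left out. The calls of *Gnl3*, *Tsr1*, *Mybbp1a*, *Rrp12*, *Polr1b* and *Nolc1* did not hold in every fit with 1 library left out, all being lost without replicates 1 or 3 at 6 h or replicates 1 or 4 at 24 h and some without replicates 2 or 4 at 6 h or replicate 2 at 24 h (highest adjusted p per gene 0.0712 to 0.146). *Polr1b* and *Nolc1* with no filter on low counts (adjusted p = 0.0636 to 0.0692) and *Rrp12* in 4 of 10 other settings (highest adjusted p = 0.078) were not called either. Ribosomal protein genes gave 0 calls of 25 by edgeR, DESeq2 and limma voom, with 4 at an unadjusted p under 0.05 and a median of -0.38, which was 0.03 and 0.00 in the cells exposed to 0.1 Gy and 2 Gy.

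Lists of amino acid and stress pathways held lower calls in differing shares. Lower calls numbered 5 of 25 in the ATF4 and amino acid response, 3 of 20 in the unfolded protein response, 2 of 20 among heat shock genes, 3 of 13 among glucocorticoid targets and 1 of 26 among Nrf2 targets, beside 3.46% of all genes, with medians of -0.25, -0.19, -0.11, -0.31 and -0.13. *Atf4*, the transcription factor of the integrated stress response, had 272, 225, 239 and 230.1 CPM at 6 h and 88.4, 102, 142 and 85.5 CPM at 24 h (log2 fold change -1.21 ± 0.18 SE, adjusted p = 0.00806), and its target *Mthfd2*, a mitochondrial enzyme of folate metabolism, had 50.1, 51.5, 52.4 and 40 CPM at 6 h and 16, 17.1, 20.2 and 15 CPM at 24 h (log2 fold change -1.5 ± 0.15 SE, adjusted p = 0.00351). *Chac1* (-1.85 ± 0.33), *Ddit3* (-1.14 ± 0.25) and *Ddit4* (-0.86 ± 0.21) made up the 5 lower calls of 25. In the unfolded protein response *Xbp1* fell, from 109, 95.9, 145 and 161 CPM to 50.8, 44.6, 54.9 and 56 CPM (log2 fold change -1.31 ± 0.18 SE, adjusted p = 0.00676), with *Herpud1* (-0.65 ± 0.16) and *Syvn1* (-0.66 ± 0.15), 2 parts of the degradation machinery of the endoplasmic reticulum. *Hspb1* (-1.35 ± 0.33) and *Bag3* (-1.18 ± 0.20) fell among 20 heat shock genes, and *Fkbp5* (-0.98 ± 0.17), *Sgk1* (-0.77 ± 0.16) and again *Ddit4* among 13 glucocorticoid targets. *Neat1*, the RNA that builds paraspeckles, had 782, 776, 677 and 424 CPM at 6 h and 164, 134, 287 and 308 CPM at 24 h (log2 fold change -1.57 ± 0.31 SE, adjusted p = 0.0217). *Hmox1*, haem oxygenase, fell as well (-1.07 ± 0.21). The calls of *Atf4*, *Mthfd2* and *Xbp1* held in all 8 fits with 1 library left out. The calls of *Chac1*, *Ddit3*, *Ddit4*, *Herpud1*, *Syvn1*, *Hspb1*, *Bag3*, *Fkbp5*, *Sgk1*, *Neat1* and *Hmox1* did not hold in every fit with 1 library left out, all being lost without replicate 1 at 6 h or replicate 1 at 24 h and some without replicates 2, 3 or 4 at 6 h or replicates 2 or 4 at 24 h (highest adjusted p per gene 0.0585 to 0.152). *Ddit4* and *Syvn1* with library size alone or no filter on low counts (adjusted p = 0.0578 to 0.0633) and *Herpud1* in 3 of 10 other settings (highest adjusted p = 0.0743) were not called either.

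Of 25 genes of radial glia and Notch signalling, 4 transcription regulators rose and 1 ligand fell, beside 3.24% higher and 3.46% lower of all genes. The other 20 had no call, 12 of the 25 log2 fold changes were above 0 and the median was -0.05. *Nfia*, which starts astrocyte differentiation in the embryo, had 63.2, 85.6, 75.9 and 82 CPM at 6 h and 166, 167, 153 and 187 CPM at 24 h (log2 fold change 1.13 ± 0.13 SE, adjusted p = 0.00513), and its relative *Nfib* had 145, 212, 173 and 152 CPM at 6 h and 342, 409, 303 and 317 CPM at 24 h (log2 fold change 1.01 ± 0.16 SE, adjusted p = 0.0117). *Pax6*, a factor of radial glia, had 20.9, 28.7, 15.9 and 24.8 CPM at 6 h and 48.4, 44, 37.7 and 34.6 CPM at 24 h (log2 fold change 0.87 ± 0.20 SE, adjusted p = 0.036). In these 3 genes the times did not overlap. *Id2*, an inhibitor of bHLH factors, had 107, 133, 115 and 135 CPM at 6 h and 225, 199.9, 153 and 174 CPM at 24 h (log2 fold change 0.62 ± 0.15 SE, adjusted p = 0.0439). *Jag1*, a Notch ligand, was lower, with 101, 127, 105 and 60.7 CPM at 6 h and 44.3, 62.8, 31.1 and 39.5 CPM at 24 h (log2 fold change -1.15 ± 0.27 SE, adjusted p = 0.036), replicate 4 at 6 h lying inside the 24 h range. *Ptch1*, the receptor and target of hedgehog signalling, had 55.5, 65.9, 54.5 and 67.3 CPM at 6 h and 111, 108, 87 and 112 CPM at 24 h (log2 fold change 0.78 ± 0.14 SE, adjusted p = 0.0147). Of 21 genes of Wnt and hedgehog signalling *Ptch1* was the 1 higher call and 2 were lower, with a median of 0.09. The Wnt ligands *Wnt7a* (-0.86 ± 0.20) and *Wnt7b* (-2.08 ± 0.37) fell. *Wnt11* (-3.69 ± 0.59) and *Wnt10b* (-2.77 ± 0.51), named after their values were seen, fell as well, and *Wnt1*, chosen in the same way, was at 0.646, 2.8, 0.502 and 0.488 CPM at 6 h and had no count in any library at 24 h (adjusted p = 0.0285). The call of *Nfia* held in all 8 fits with 1 library left out. The calls of *Nfib*, *Pax6*, *Id2*, *Jag1*, *Ptch1*, *Wnt7a*, *Wnt7b*, *Wnt11*, *Wnt10b* and *Wnt1* did not hold in every fit with 1 library left out, each being lost without 1 or more of replicates 1, 2, 3 and 4 at 6 h and replicates 1, 2 and 4 at 24 h (highest adjusted p per gene 0.05 to 0.147). *Pax6* and *Wnt7a* with an offset for GC content and length (adjusted p = 0.0536 to 0.0911) and *Id2* with no filter on low counts (adjusted p = 0.058) were not called either.

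Genes of the mature astrocyte held 0 calls by edgeR, and lists of its reactive state held 1 or 2 lower calls each. Of 28 genes of astrocyte homeostasis 0 were called by edgeR and by limma voom and 2 by DESeq2, with 4 at an unadjusted p under 0.05 and a median of -0.16. *Gfap*, the filament protein that marks astrocytes, had 623, 652, 385 and 460.2 CPM at 6 h and 390.1, 406, 499.6 and 408 CPM at 24 h (log2 fold change -0.32 ± 0.19 SE, adjusted p = 0.346). *Aqp4*, the water channel of their endfeet, had 578, 332, 538 and 345 CPM at 6 h and 891, 523, 395 and 838 CPM at 24 h (log2 fold change 0.56 ± 0.30 SE, adjusted p = 0.28). The groups overlapped in both genes. Of 13 pan-reactive genes *Hspb1* and *Cxcl10* were lower, of 12 genes of the A1 state *Ggta1*, a galactosyltransferase, was higher (0.79 ± 0.17) and *Fkbp5*, a chaperone of steroid receptors, was lower, and of 11 of the A2 state *Ptgs2* and *Tm4sf1* (-0.87 ± 0.15) were lower. Over all genes 3.24% were called higher and 3.46% lower. The medians of the pan-reactive, A1 and A2 lists were -0.64, -0.35 and -0.58, beside -0.02 over all genes, with 6, 2 and 7 members at an unadjusted p under 0.05. DESeq2 called 4, 2 and 4 of their members and limma voom 2, 2 and 1. The edgeR fit with a replicate block called 7, 5 and 5 of them lower and 1, 1 and 0 higher, and of the homeostasis list 3 lower and 1 higher. *Tgfb1* had 73.9, 36.8, 76.5 and 78.9 CPM at 6 h and 31.1, 15.7, 47.9 and 42.6 CPM at 24 h and did not pass (log2 fold change -0.95 ± 0.35 SE, adjusted p = 0.136), although it passed with the replicate block. *Tgfb3*, another ligand of the family, rose from 54.6, 77.6, 61 and 68.3 CPM to 109.7, 93.5, 172 and 128 CPM (log2 fold change 0.95 ± 0.20 SE, adjusted p = 0.0271). The calls of *Ggta1*, *Tm4sf1* and *Tgfb3* did not hold in every fit with 1 library left out, all being lost without replicate 1 at 6 h or replicate 4 at 24 h and some without replicates 2, 3 or 4 at 6 h or replicate 1 at 24 h (highest adjusted p per gene 0.0654 to 0.104). *Hprt*, the reference gene of the study's quantitative PCR, had 57.9, 55.3, 56.9 and 58 CPM at 6 h and 60.9, 68.1, 53.4 and 55.1 CPM at 24 h (adjusted p = 0.815).

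Channels, growth factors and adhesion molecules held calls in both directions, and most of their members did not pass the test. Of 31 ion channels and receptors 2 were called higher and 2 lower, of 31 genes of axon guidance and adhesion 2 and 2, and of 27 neurotrophic and angiogenic factors 2 and 3, with medians of 0.30, 0.22 and -0.11, beside 3.24% higher and 3.46% lower of all genes. *Kcnk3* (chr5:30588170-30625271, plus strand), a leak potassium channel, had the smallest p of all genes, with 6.75, 8.9, 5.94 and 5.61 CPM at 6 h and 0.651, 0.602, 0.536 and 0.572 CPM at 24 h (log2 fold change -3.52 ± 0.26 SE, adjusted p = 0.0024). *Kcnk2*, a mechanosensitive channel of the same family, rose, with 91.5, 101, 74.5 and 94.9 CPM at 6 h and 193, 168, 158 and 154 CPM at 24 h (log2 fold change 0.89 ± 0.14 SE, adjusted p = 0.00928), and *Kcnk12* (-2.67 ± 0.35) and *Kcnk13* (-1.24 ± 0.24), named after their values were seen, fell. *Grin2c*, an NMDA receptor subunit, had 5.51, 5.44, 4.14 and 6.2 CPM at 6 h and 0.529, 1.34, 0.429 and 0.52 CPM at 24 h (log2 fold change -2.92 ± 0.39 SE, adjusted p = 0.00619), and *Gabrb1*, a GABA-A receptor subunit, rose (1.06 ± 0.20). *Bdnf*, a neurotrophin, fell (50.7, 45.7, 46.2 and 35 CPM at 6 h and 10.8, 23.8, 9.83 and 9.15 CPM at 24 h, -1.73 ± 0.31), and *Angpt1*, a vessel-stabilizing ligand, rose (1.61 ± 0.38), its groups overlapping. *Plxna4* (-0.82 ± 0.19) and *Unc5b* (-1.61 ± 0.37), receptors for guidance cues, fell, and *Ephb2* (0.65 ± 0.15) and the synaptic adhesion gene *Nlgn1* (1.56 ± 0.30) rose. The connexins *Gja3* (-3.31 ± 0.48) and *Gjb2* (-3.64 ± 0.69), the subunits of gap junctions, were lower and were named after their values were seen. *Slc40a1*, the iron exporter, was higher, with 1.19, 0.783, 1.42 and 1.32 CPM at 6 h and 3.94, 2.45, 3.43 and 3.53 CPM at 24 h (log2 fold change 1.5 ± 0.28 SE, adjusted p = 0.0189). The calls of *Kcnk3*, *Kcnk2*, *Kcnk12*, *Grin2c* and *Gja3* held in all 8 fits with 1 library left out. The calls of *Kcnk13*, *Gabrb1*, *Bdnf*, *Angpt1*, *Plxna4*, *Unc5b*, *Ephb2*, *Nlgn1*, *Gjb2* and *Slc40a1* did not hold in every fit with 1 library left out, all being lost without replicate 1 at 6 h or replicates 1 or 4 at 24 h and some without replicates 2, 3 or 4 at 6 h or replicate 2 at 24 h (highest adjusted p per gene 0.0701 to 0.123). *Kcnk13*, *Gabrb1*, *Unc5b* and *Slc40a1* with an offset for GC content and length (adjusted p = 0.0512 to 0.143) and *Angpt1* and *Gjb2* with limma voom (adjusted p = 0.0648 to 0.0656) were not called either.

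Splicing genes and long noncoding RNAs held 5 and 4 calls, 4 of them lower in each list, beside 3.24% higher and 3.46% lower of all genes. The medians were 0.23 and -0.39, and 17 of the 25 splicing genes had a log2 fold change above 0. Among 25 splicing and RNA-binding genes *Srsf2* (-0.72 ± 0.16), *Srsf5* (-0.76 ± 0.16), *Hnrnpd* (-0.70 ± 0.14) and the cold-inducible *Cirbp* (-0.97 ± 0.19) fell and *Pnisr* (0.60 ± 0.15) rose, with 15.6% of the *Srsf2* exon bases on *Mettl23*, a gene of the opposite strand. Among 24 long noncoding RNAs *Mirg* (-1.28 ± 0.31), *Snhg5* (-0.89 ± 0.17) and *Snhg17* (-1.04 ± 0.15), the last 2 being hosts of small nucleolar RNAs, fell beside *Neat1*. *Slc39a14* (-0.67 ± 0.12), a zinc and iron importer, fell, and *Adamts5* (1.08 ± 0.23), a protease of proteoglycans, rose. *Farsb*, a subunit of a phenylalanyl-tRNA synthetase, rose (0.65 ± 0.15), and *Kcna4*, a voltage-gated potassium channel, fell (-1.89 ± 0.43). The call of *Snhg17* held in all 8 fits with 1 library left out. The calls of *Srsf2*, *Srsf5*, *Hnrnpd*, *Cirbp*, *Pnisr*, *Mirg*, *Snhg5*, *Slc39a14*, *Adamts5*, *Farsb* and *Kcna4* did not hold in every fit with 1 library left out, all being lost without replicates 1 or 3 at 6 h or replicate 1 at 24 h and some without replicates 2 or 4 at 6 h or replicates 2 or 4 at 24 h (highest adjusted p per gene 0.0843 to 0.141). *Farsb* with no filter on low counts (adjusted p = 0.0509) and *Pnisr* in 5 of 10 other settings (highest adjusted p = 0.161) were not called either. By edgeR 0 genes were called among 24 collagens, 31 matrix glycoproteins, 29 genes of autophagy and lysosomes, 30 interferon-stimulated genes, 18 of IGF and insulin signalling, 25 nuclear subunits of the respiratory chain, 13 mitochondrially encoded genes and 20 of the proteasome, with 4, 7, 3, 2, 1, 5, 2 and 0 of them at an unadjusted p under 0.05. DESeq2 called 3 of the collagens, 4 of the matrix genes and 1 of the autophagy genes, limma voom 1 of the matrix genes, and both called 0 of the others. The edgeR fit with a replicate block called 4 higher and 6 lower of the interferon-stimulated genes and 5 lower of the collagens. Of the matrix genes it called 1 higher and 7 lower, of the autophagy genes 1 higher and 1 lower, of the IGF and insulin genes 1 higher, and of the others 0.

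The 20 genes of smallest p among those that rose came from several functions. *Mgea5*, the enzyme that removes O-GlcNAc from proteins, led them with 62.7, 74.9, 64.6 and 54 CPM at 6 h and 209, 167, 182 and 173 CPM at 24 h (log2 fold change 1.51 ± 0.14 SE, adjusted p = 0.00337). *Skida1*, named for a domain it shares with SKI and DACH proteins, had 9.83, 12.4, 9.03 and 12.2 CPM at 6 h and 30.4, 30.6, 31.4 and 33.2 CPM at 24 h (log2 fold change 1.53 ± 0.15 SE, adjusted p = 0.00351). *Ints13*, a subunit of the Integrator complex, had 16, 21.4, 20.4 and 20 CPM at 6 h and 48.9, 54.1, 42.7 and 45.1 CPM at 24 h (log2 fold change 1.29 ± 0.15 SE, adjusted p = 0.005). These 3 genes differ in function and share a clean split between the times. *Atp7b*, a copper-exporting ATPase, had 5.26, 8.74, 4.26 and 5.32 CPM at 6 h and 27.8, 23.6, 19.3 and 22.7 CPM at 24 h (log2 fold change 1.98 ± 0.25 SE, adjusted p = 0.00525). *Srgap3*, a GTPase activator downstream of Slit and Robo, had 109.7, 139, 127 and 119.8 CPM at 6 h and 264, 264, 232 and 245 CPM at 24 h (log2 fold change 1.02 ± 0.12 SE, adjusted p = 0.00513), and *Itsn1*, an endocytic scaffold, 139, 152, 183 and 159.8 CPM at 6 h and 336, 283, 344 and 346 CPM at 24 h (log2 fold change 1.05 ± 0.13 SE, adjusted p = 0.00543). *Cd200*, a surface ligand that restrains myeloid cells, had 44.2, 49.3, 41.5 and 46.1 CPM at 6 h and 89.8, 91.2, 76.3 and 86.4 CPM at 24 h (log2 fold change 0.92 ± 0.12 SE, adjusted p = 0.00549). *Kcnab1* (1.74 ± 0.21), a subunit of voltage-gated potassium channels, *Ctdspl* (1.28 ± 0.17), a phosphatase, *Sltm* (0.95 ± 0.11), an RNA-binding modulator of transcription, *Plscr2* (1.08 ± 0.13), a phospholipid scramblase, and *Ksr2* (3.02 ± 0.41), a scaffold of the Raf, MEK and ERK cascade, belonged to the same 20. At 6 h *Ksr2* had 1 to 4 counts a library. In each of these genes the 4 values at 24 h lay above the 4 values at 6 h, and each call held in all 8 fits with 1 library left out.

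Of the 20 genes of smallest p among those that fell, 8 belong to sterol synthesis and uptake. Among the others, *Crispld2*, a secreted protein that glucocorticoids induce in other cells, had 47.9, 26.3, 34.5 and 31.3 CPM at 6 h and 6.02, 4.58, 3.54 and 2.34 CPM at 24 h (log2 fold change -3.08 ± 0.31 SE, adjusted p = 0.00351). *Relt* (-2.36 ± 0.26), a receptor of the tumour necrosis factor family, *Cabp1* (-1.95 ± 0.20), a calcium sensor, *Ism1* (-2.09 ± 0.22), a secreted protein, *Tuba8* (-2.06 ± 0.22), a tubulin, *Alkbh1* (-1.28 ± 0.13), a demethylase of nucleic acids, and *Rbm14* (-1.37 ± 0.16), an RNA-binding coactivator, fell with adjusted p-values of 0.00387, 0.00351, 0.00351, 0.00384, 0.00351 and 0.005. The calls of these 7 genes held in all 8 fits with 1 library left out.

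The same contrast of time in the exposed cells, was measured in libraries separate from the mock libraries, although same-numbered libraries of a time deviated together between doses. After 0.1 Gy 1609 of 16250 genes (9.9%) were called between 24 h and 6 h, and after 2 Gy 1112 of 16002 (6.95%). Of the 1064 genes called in mock-irradiated cells, 1059 were tested after 0.1 Gy, of which 1058 had the same sign and 751 were called, that is 70.6% of all 1064 and 46.7% of the calls after 0.1 Gy. After 2 Gy 1045 of 1052 had the same sign and 489 were called, 46% of all 1064 and 44% of the calls there. Over all genes the sign was the same for 72.1% and 68.0%. A set of 474 genes was called in the same direction at all 3 doses, with 187 higher and 287 lower. Cholesterol synthesis and uptake had medians of -1.90 and -1.94 after 0.1 Gy and 2 Gy beside -1.76 without radiation. *Il11* was at -5.16 and -4.70, *Il6* at -5.12 and -4.54, *Nr4a1* at -3.64 and -3.49, *Arntl* at -1.85 and -1.79, *Klhl24* at 1.46 and 1.54 and *Mgea5* at 1.34 and 1.27 (log2 fold changes after 0.1 Gy and 2 Gy). Medians lay further apart between doses, with no test of the lists, in the case of G2/M genes (-0.11 without radiation, -0.43 and -0.73 after 0.1 Gy and 2 Gy), of S phase genes (0.12, 0.02 and -0.42) and of mitochondrially encoded genes (0.59, -0.19 and -0.85).

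Whether the change with time differed by dose was tested with an interaction term. By edgeR's quasi-likelihood test 0 of 17040 genes (0%) were called for 0.1 Gy and 0 of 16866 (0%) for 2 Gy, with 431 and 827 genes at an unadjusted p under 0.05 and lowest adjusted p-values of 0.923 and 0.819. DESeq2 called 0 and 7 genes, the 7 being *Nuf2*, *Nusap1*, *Ercc6l*, *Ccna2*, *Esco2*, *Mcm4* and *Ndc80*, which serve replication and mitosis and none of which was called in mock-irradiated cells. At 1 time point same-numbered libraries of different doses deviated together, with correlations from 0.54 to 0.927. With the replicate number as a block within each time point, 1441 genes were called for 0.1 Gy and 1122 for 2 Gy, of which 84 and 77 were among the 1064 genes above and 2 and 3 were members of the cholesterol list. With that block and an offset for base composition and length, 169 and 379 genes were called, 7 and 25 of them among the 1064 and none among the cholesterol list.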

How the data were processed

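The authors deposited 1 table of raw read counts per gene and library, with 49315 genes each, and none of the 24 tables held a column of another sample. Per the labels, polyadenylated RNA was sequenced and the reads were placed on build mm10. The aligner, the counter and the use of strand were not given in the sources used here. Gene symbols were matched for 48970 identifiers, and promoters were taken from RefSeq (GRCm38.p6).

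The counts of the 8 mock libraries were scaled by TMM, filtered with filterByExpr (minimum count 10) and tested with the quasi-likelihood test of edgeR 4.0.16 in R 4.3.3, 24 h against 6 h with no covariate, which left 15887 genes. Benjamini-Hochberg adjustment ran over all of them and calls needed an adjusted p under 0.05. DESeq2 1.42.0, limma voom 3.58.1, other scalings, filters, a replicate block, a GC and length offset and fits with 1 library left out were run as alternatives. Library totals were compared by exact permutation tests. Same-numbered libraries of different doses at 1 time point deviated together (correlations 0.54 to 0.927), so the interaction is also given with that block, added after the data were seen.

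The members and gene lists were chosen with earlier results of these data known. Genes were named by this rule: the 20 calls of smallest p in each direction, every called list member, the 3 members of each list with the greatest change and the genes that the study names. Genes outside this rule are said in the text to have been named after their values were seen, and so were the letters of the sterol and ROR elements. *Tm7sf2*, *Ebp*, *Fos*, *Jun*, *Egr1* and the uncalled clock genes were named in the same way. Some genes are not reported here.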

Additional observations from a re-analysis of the deposited data

Results flagged for a closer look

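Each group of 4 values printed for a gene, and each summed marker list, was searched for 1 library far from the other 3, meaning that its gap to the nearest value took most of the range of the group (Dixon's 95% limit for 4 values). Of 166 groups examined, 15 had such a library, and chance flags about 1 in 20 groups.

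At 24 h, replicate 2 was high for *Insig1* (116 CPM, the others 68.8 to 70.3 CPM), *Bdnf* (23.8 CPM, the others 9.15 to 10.8 CPM) and *Grin2c* (1.34 CPM, the others 0.429 to 0.529 CPM) and low for *Itsn1* (283 CPM, the others 336 to 346 CPM). The same library had the most counts of vessel and pericyte markers (90.4 CPM, the others 35.0 to 39.1 CPM). At 6 h, replicate 2 was high for *Wnt1* (2.80 CPM, the others 0.488 to 0.646 CPM), *Per3* (22.1 CPM, the others 16.8 to 17.6 CPM) and the summed neuron markers (746 CPM, the others 527 to 548 CPM) and low for *Tgfb1* (36.8 CPM, the others 73.9 to 78.9 CPM). Replicate 2 also had the fewest microglial counts at both times, and their part in these values was not tested.

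At 24 h, replicate 3 was high for *Bhlhe40* (99.9 CPM, the others 59.7 to 63.4 CPM) and *Gfap* (500.0 CPM, the others 390.0 to 408 CPM) and low for *Per3* (23 CPM, the others 33.4 to 35.6 CPM). Leaving out this library raised the number of calls from 1064 to 2999. At 6 h, replicate 3 was high for *Il11* (111 CPM, the others 36.8 to 48.2 CPM) and *Bhlhe40* (184 CPM, the others 115 to 123 CPM). Replicate 4 at 24 h was high for *Per2* (45.2 CPM, the others 33.5 to 35.4 CPM).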

How the results depend on the processing

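The 1064 calls (515 higher, 549 lower) were 852 to 1089 with other size factors, library size alone, no filter, a stricter filter or limma voom. The DESeq2 Wald test called 1969 (1072 higher, 897 lower), an offset for GC content and length 1622 (786 and 836) and a joint fit of all 24 libraries 2488 (1340 and 1148). Under that offset 925 of the 1064 calls were kept in the same direction. Log2 fold change and GC content had a Pearson correlation of -0.316 across 15850 genes. An adjusted p under 0.01 left 157 (52 and 105) and a log2 fold change of 1 or more 564 (240 and 324). A replicate block for the numbers 1 to 4 gave 2500 calls (1190 and 1310), and with block and offset 4356 (2058 and 2298). Across the 2 times same-numbered libraries correlated at 0.41, 0.825, 0.0623 and 0.518. The main fit has no block because the study's methods name none, and whether same-numbered dishes share a culture is not stated. Replicates 1 and 2 correlated best with their own number in both directions. *Col3a1*, of the fibroblast markers, was at 115, 80.1, 4.01 and 4.59 CPM in replicates 1 to 4 at 6 h and at 55.2, 48.9, 2.07 and 2.13 CPM at 24 h, and microglial counts were lowest in replicate 2 at both times. With the block 48 of 96 uncalled named genes passed the threshold, *Tgfb1* (adjusted p = 0.00333) and *Tnf* (0.0238) among them, and so did 4 higher and 6 lower of 30 interferon-stimulated genes, 5 lower of 24 collagens, 1 higher and 7 lower of 31 matrix glycoproteins and 7, 5 and 5 lower of the pan-reactive, A1 and A2 lists. Without 1 library the calls ranged from 170 to 2999, 57 to 1487 higher and 109 to 1512 lower. Of the named genes, 0 called and 5 uncalled ones (*Cdkn1a*, *Rela*, *Mki67*, *Il1b* and *Hprt*) changed direction in at least 1 of 18 settings. The medians of 12 of 52 lists crossed 0, 5 under another setting and 11 with 1 library left out, among them the circadian clock (0.09, range -0.06 to 0.19), radial glia and Notch (-0.05, -0.10 to 0.12), interferon-stimulated genes (-0.06, -0.36 to 0.25), IGF and insulin signalling (0.02, -0.11 to 0.13), axon guidance (0.22, -0.01 to 0.52) and the oligodendrocyte (0.18, -0.12 to 0.51), ependymal (-0.22, -0.71 to 0.10) and microglial markers (-0.34, -0.69 to 0.03). Of 182 called genes, 168 under the naming rule and 14 chosen after their values were seen, 1761 of 1812 values under other settings stayed past the threshold and 51 did not, and with 1 library left out 960 of 1456 stayed. The time by dose interaction called 0 genes with the replicate block, library size alone or no filter, DESeq2 called 0 (0.1 Gy) and 7 (2 Gy), a replicate block within each time point 1441 and 1122, and that block with the offset 169 and 379. The cause of these shifts was not tested. With 4 libraries a time, genes of few counts and changes smaller than the spread between libraries cannot be resolved.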

Other observations

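Genes of the primary cilium, the sensory antenna that astrocytes carry and that disassembles when cells divide, were listed after the values had been seen, and most of them did not pass the test. Of 54 tested members 11 (20.4%) were called higher, 0 lower and 43 neither, beside 3.24% and 3.46% of all genes, with a median log2 fold change of 0.38. They were the small GTPase *Arl13b*, the BBSome genes *Bbs4*, *Bbs7* and *Bbs9* with their chaperonin-like partner *Bbs12*, the transport genes *Ift46*, *Ift74* and *Ift140*, and *Cc2d2a*, *Invs* and *Rpgrip1l* of the transition zone and proximal cilium. The median was 0.25 after 0.1 Gy and 0.34 after 2 Gy. The list has a median GC content of 47.8%, and the part of base composition in its calls was not tested.

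Zinc finger genes with Zfp symbols were mostly uncalled, with 18 of 359 (5.01%) called higher and 6 (1.67%) lower, beside 3.24% and 3.46% of all genes. Their median was 0.20, but it was -0.06 after 0.1 Gy and -0.09 after 2 Gy. Their median GC content of 44.5% was below the 49.6% of all tested genes. Among solute carriers 6 of 257 (2.33%) were higher and 14 (5.45%) lower, beside 3.24% and 3.46% of all genes. Of the 11 Wnt ligands tested 5 fell (median -0.86, and -0.35 and -0.13 after 0.1 Gy and 2 Gy), of 8 connexins 3 fell (median -1.64, and -0.74 and -0.64 after 0.1 Gy and 2 Gy) and of 9 potassium channels of the Kcnk family 3 fell and *Kcnk2* rose, beside 3.46% lower and 3.24% higher of all genes. These families were looked at after the values were seen, and no test of them as groups was made.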
